A study of Mus musculus with 8 samples.

Results

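Long non-coding RNAs (lncRNAs) that are kept in the nucleus, or that carry small RNAs in their introns, were examined in cultured Lewis lung carcinoma (LLC) cells, a mouse lung carcinoma line. The 9 genes are the nuclear lncRNAs Malat1 and Neat1, the small nucleolar RNA (snoRNA) hosts Gas5, Snhg1, Snhg3 and Snhg12, and the microRNA (miRNA) hosts Mir17hg, Mir22hg and Dleu2. They were chosen by name and matched by symbol to their Ensembl identifiers, which gave 9 of the 55487 genes in the count table, and all 9 were among the 14228 genes that passed the expression filter. The study sequenced 4 libraries of wild-type LLC cells and 4 of ΔAgo2 LLC cells, each labelled as a biological replicate of batch 1. All cells grew in DMEM with fetal bovine serum and antibiotics. The ΔAgo2 line had been infected with a CRISPR-Cas9 lentivirus carrying a guide to Ago2, kept under puromycin, and sorted into single-cell clones, whereas the sources used here describe no control vector for the wild-type line. The clone that was sequenced is not given in the sources used here, and a difference between the lines cannot be told apart from a difference between 1 clone and its parental population. Nothing in the labels says that the replicates came from separate clones, so p-values measure the spread between these cultures.

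An miRNA host is transcribed as a long precursor from which the Microprocessor complex cuts a hairpin. Dicer trims the hairpin to the mature miRNA, which Argonaute proteins such as Ago2 then load and use to find messenger RNAs, chiefly through the seed, bases 2 to 8 of the miRNA. SnoRNA hosts are spliced, the snoRNAs are trimmed out of the introns and guide chemical modification of ribosomal RNA, and the spliced host is left as a short-lived by-product that nonsense-mediated decay removes when ribosomes read it. Malat1 sits in nuclear speckles, where splicing factors gather, and Neat1 is the scaffold of paraspeckles. The comparison asks whether the host and nuclear lncRNAs differed between cells with and without Ago2.

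The libraries held 39628101 to 68530912 counts. The Ago2 transcript, which the guide targets, was at 119 to 519.5 CPM (counts scaled to library size with TMM factors) in wild-type and 293 to 408 CPM in ΔAgo2 libraries. Its log2 fold change was 0.21 (adjusted p = 0.908, edgeR), or -0.05 (adjusted p = 0.959) without wild-type replicate 4, so the RNA level did not check the labels. The paper assessed Ago2 protein in LLC wild-type and ΔAgo2 cells by western blot, and RNA counts do not measure protein. Vim, a mesenchymal filament, and the simple-epithelium keratins Krt8 and Krt18 were expressed at means of 248 to 3732 TPM (transcript abundance scaled to length and library). Of the other carcinoma and lung markers fixed, Epcam, Cdh1, Nkx2-1 and Sftpc did not exceed 9 counts in a library. Of the leukocyte markers, Ptprc, Cd3e and Adgre1 had at most 2 counts, while Cd68 and Lyz2 passed the filter at means of 28.4 to 55.7 and 2.31 to 2.79 TPM. The endothelial markers Pecam1, Cdh5 and Kdr had at most 39 counts, the fibroblast markers Pdgfra, Col1a1 and Dcn had means of 0.635 to 19 TPM, and the erythroid marker Hbb-bs had 0 counts. Wild-type replicate 4 stood apart, with a median Spearman correlation of 0.864 with its own group against 0.948 to 0.986 for the other libraries, 0.540% of counts on mitochondrial genes against 2.39 to 4.51%, and a deviation that followed GC content over genes. Fold changes of the 9 lncRNAs and of the related genes are given with and without it.

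The mature miRNAs that lie in the 3 miRNA hosts are shown first because their seeds divide the hosts into families. RefSeq sequences on GRCm38.p6 were read for 17 mature miRNAs from 9 hairpins, and the 9 listed here are 1 arm of each hairpin, the arm better known to act. They are written 5′ to 3′ with the seed in capitals. The first 6 lie in Mir17hg on the plus strand of chromosome 14, miR-22-3p lies in Mir22hg on chromosome 11, and the last 2 lie in Dleu2 on the minus strand of chromosome 14.
mmu-miR-17-5p: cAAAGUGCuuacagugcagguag
mmu-miR-20a-5p: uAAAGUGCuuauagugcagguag
mmu-miR-18a-5p: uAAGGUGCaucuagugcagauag
mmu-miR-19a-3p: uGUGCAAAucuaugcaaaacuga
mmu-miR-19b-3p: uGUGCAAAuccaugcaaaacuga
mmu-miR-92a-3p: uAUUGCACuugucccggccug
mmu-miR-22-3p: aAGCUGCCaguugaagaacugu
mmu-miR-15a-5p: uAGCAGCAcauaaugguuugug
mmu-miR-16-5p: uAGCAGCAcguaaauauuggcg
Mir17hg thus carries 4 seeds in these 6 miRNAs, with miR-17-5p and miR-20a-5p sharing AAAGUGC and miR-19a-3p and miR-19b-3p sharing GUGCAAA. Dleu2 carries AGCAGCA in both of its miRNAs. All of these seeds but that of miR-22-3p also occur in miRNAs from other loci. The X chromosome holds all 4 Mir17hg seeds, for example in miR-106a-5p, miR-18b-5p, a second copy of miR-19b-3p, and miR-363-3p. AGCAGCA is also in miR-195a-5p and miR-497a-5p on chromosome 11 and in miR-322-5p on the X chromosome, among others. Some of the other loci lie in protein-coding hosts. Mcm7, a subunit of the replicative helicase, holds miR-106b-5p and miR-93-5p with the seed AAAGUGC and miR-25-3p with the seed AUUGCAC. Smc4, a condensin subunit, holds miR-15b-5p and a second copy of miR-16-5p with the seed AGCAGCA.

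Of the snoRNAs, 3 are shown from the hosts whose values differed most between the genotypes, Gas5 and Snhg12, with the core of box C (TGATG, within the first 15 bases) and box D (CTGA, within the last 20 bases) in capitals. They are GENCODE transcript sequences for GRCm38 on the plus strand.
Snord78, in Gas5, chr1:161036984-161037049: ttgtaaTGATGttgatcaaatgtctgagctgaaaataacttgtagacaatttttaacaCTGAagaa
Snord80, in Gas5, chr1:161037601-161037681: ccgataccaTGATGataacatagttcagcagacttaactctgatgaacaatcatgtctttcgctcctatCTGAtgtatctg
Snord99, in Snhg12, chr4:132310691-132310764: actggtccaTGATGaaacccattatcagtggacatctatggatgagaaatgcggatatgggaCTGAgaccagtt
Both boxes were found in 16 of the 21 annotated snoRNAs of 60 to 130 bases in the 4 hosts, and in 36.9% of the 934 annotated mouse snoRNAs of that length. All 10 annotated snoRNA genes of Gas5 held both. Snord80 in Gas5 and Snora16a in Snhg12 are each annotated by a pair of overlapping genes, and the counts given here are of annotated genes. The other kind, box H/ACA, is found in Snhg3 (Snora73a and Snora73b) and in Snhg12 (Snora16a, Snora44 and Snora61).

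The 9 lncRNAs spanned levels from 1.59 TPM for Dleu2 to 519.6 TPM for Malat1, as means over the 8 libraries. Ranks by mean TPM were taken among the 1027 tested genes annotated as lncRNAs, a class that here also held Cct6a and Ifi30. Gm42418, 2410006H16Rik, Bc1 and Gm10076 stood above Malat1, and what these genes are was not examined. Of the 9 lncRNAs, Malat1 ranked 5th and Gas5 6th, Snhg1 20th, Neat1 24th, Snhg12 31st, Snhg3 38th, Mir22hg 74th, Mir17hg 159th and Dleu2 520th. Together they took 0.0291 to 0.45% of a library's counts. Within libraries, Gas5 exceeded Snhg1, Snhg3 exceeded Mir22hg, Mir22hg exceeded Mir17hg and Mir17hg exceeded Dleu2 in 8 of 8, each by a mean log2 ratio of TPM larger than its SD. This order rests on TPM, which is scaled by length, and was not fully kept in CPM. For example, Snhg3 was at 8.69 and Mir22hg at 9.54 CPM in wild-type replicate 3. Malat1 exceeded Gas5 in 6 of 8 libraries, with a mean log2 ratio of 0.44 ± 1.29 (SD, n = 8), so the first pair in the order did not differ beyond its spread. The neighbours Snhg1 and Neat1, Neat1 and Snhg12, and Snhg12 and Snhg3 did not differ beyond their spread either, with mean log2 ratios of 0.26 ± 0.87, 0.49 ± 1.18 and 0.32 ± 0.96 (SD, n = 8).

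**Figure D1:**
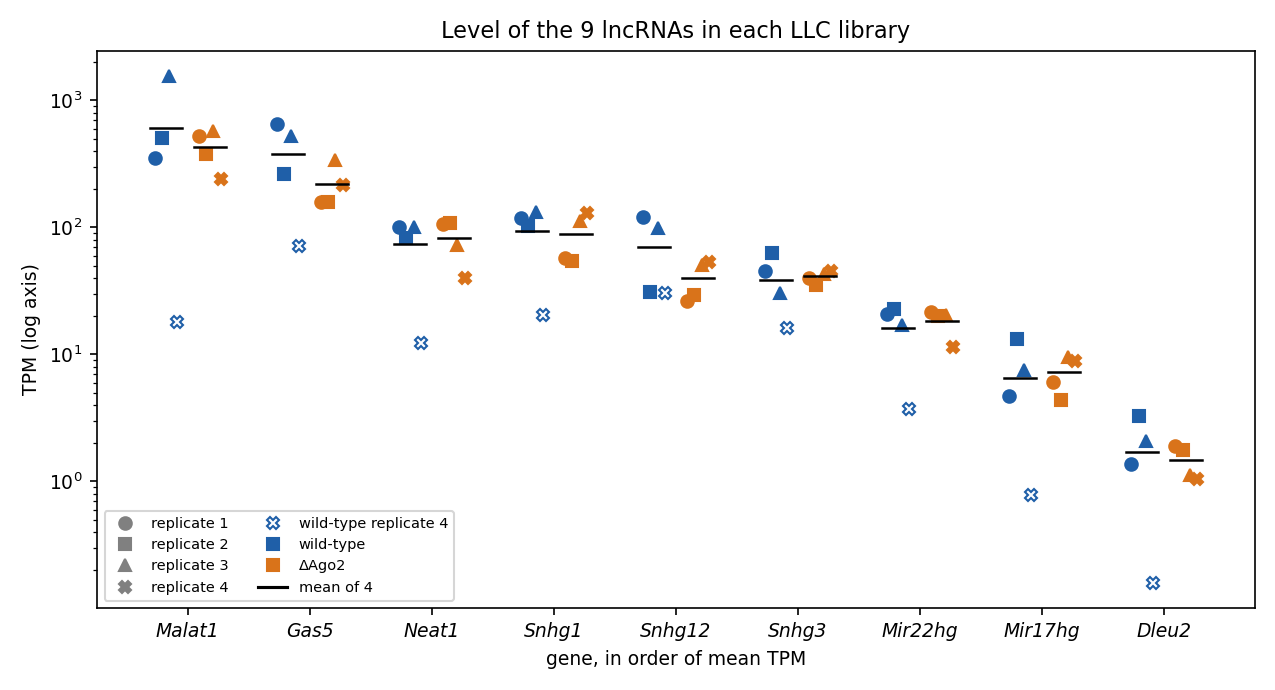
TPM of each of the 9 lncRNAs (horizontal axis) in each library on a log axis. The order is that of mean TPM, except that Neat1, at 78.1 TPM, stands before Snhg1, at 91.1 TPM. Wild-type is in blue and ΔAgo2 in orange, with marker shapes for replicates and a black line at the mean of 4. Wild-type replicate 4 (open cross) is the lowest TPM of the wild-type group for every gene, at 18.1 TPM for Malat1 and 72 TPM for Gas5, for example.

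Malat1 (ENSMUSG00000092341.3) is a lncRNA of 6983 bases that lies on chromosome 19, minus strand, at 5795690 to 5802672 of GRCm38 (mm10). It was at 354, 505, 1556 and 18.1 TPM in wild-type replicates 1 to 4 and at 524, 382, 579 and 239 TPM in ΔAgo2 replicates 1 to 4. The wild-type libraries enclosed the ΔAgo2 libraries on both sides, with the highest and the lowest level of all 8. The highest wild-type library was 55.6-fold above the lowest in CPM, or 3.97-fold without replicate 4, against 2.53-fold in ΔAgo2. The log2 fold change of ΔAgo2 over wild-type was -0.55 (standard error 0.82, 95% interval -2.38 to 1.28, adjusted p = 0.880 by the quasi-likelihood F test in edgeR, Benjamini-Hochberg over all genes tested). Without wild-type replicate 4 it was -0.94 (standard error 0.50, adjusted p = 0.484), and without wild-type replicate 3, the library with the highest Malat1 level, it was 0.52.

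Neat1 (ENSMUSG00000092274.3), the paraspeckle scaffold, lies in the same neighbourhood on the same strand, from 5824708 to 5845478, and spans 20771 bases. Its levels were 101, 83.2, 101 and 12.4 TPM in wild-type and 106, 109, 72.7 and 40.2 TPM in ΔAgo2 replicates 1 to 4. Apart from wild-type replicate 4, the lowest library was ΔAgo2 replicate 4, and the groups overlapped. The log2 fold change was 0.03 (standard error 0.50, 95% interval -1.09 to 1.15, adjusted p = 0.993), or -0.28 (adjusted p = 0.752) without wild-type replicate 4. The ratio of Malat1 to Neat1 in TPM was 3.49, 6.08, 15.4 and 1.46 in wild-type and 4.95, 3.51, 7.96 and 5.94 in ΔAgo2 replicates 1 to 4. The pair therefore did not keep 1 ratio even among wild-type replicates 1 to 3. Both levels come from libraries of polyadenylated RNA, and how fully such libraries capture Malat1 and Neat1 was not tested.

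Among the snoRNA hosts, Gas5 and Snhg12 had the most negative fold changes of the 9 lncRNAs. Gas5 (ENSMUSG00000053332.13; chromosome 1, plus strand, 161034422 to 161038539) was named for its accumulation in growth-arrested cells. It was at 658, 265, 527 and 72 TPM in wild-type and at 159, 159, 339 and 217 TPM in ΔAgo2 replicates 1 to 4. The 2 highest libraries were wild-type and the lowest was also wild-type, so the groups overlapped. Its log2 fold change was -0.92 (standard error 0.54, 95% interval -2.12 to 0.29, adjusted p = 0.738, edgeR). Without wild-type replicate 4 the mean was 484 ± 200.1 TPM (SD, n = 3) in wild-type against 219 ± 84.9 TPM (SD, n = 4) in ΔAgo2, and the log2 fold change was -1.21 (standard error 0.41, unadjusted p = 0.0157, adjusted p = 0.264, edgeR). Leaving out wild-type replicate 1 instead, the library with the highest Gas5 level, brought it to -0.45 (unadjusted p = 0.417, edgeR). In the set without replicate 4, ΔAgo2 replicate 3, at 339 TPM, still lay above wild-type replicate 2, at 265 TPM.

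Snhg12 (ENSMUSG00000086290.9; chromosome 4, plus strand, 132308623 to 132311024) was at 120.1, 31.1, 98.7 and 30.2 TPM in wild-type and at 26.3, 29.6, 50.6 and 53.2 TPM in ΔAgo2 replicates 1 to 4. Wild-type replicates 1 and 3 were the 2 highest libraries, while wild-type replicates 2 and 4 lay within the ΔAgo2 range. Its log2 fold change was -0.98 (standard error 0.49, 95% interval -2.07 to 0.11, unadjusted p = 0.0727, adjusted p = 0.706, edgeR), and -1.14 (unadjusted p = 0.0418, adjusted p = 0.373) without wild-type replicate 4. Leaving out wild-type replicate 1 instead brought it to -0.57, the value nearest 0 of the 8 such fits.

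Snhg1 (ENSMUSG00000108414.1; chromosome 19, plus strand, 8723475 to 8726443), the host of Snord22 and 7 further snoRNA genes, was at 118, 102, 132 and 20.6 TPM in wild-type and at 57.2, 54.7, 113 and 131 TPM in ΔAgo2 replicates 1 to 4. The ΔAgo2 libraries thus formed a low and a high pair, the high pair level with wild-type replicates 1 to 3. The log2 fold change was -0.16 (standard error 0.47, 95% interval -1.21 to 0.90, adjusted p = 0.945), or -0.43 (adjusted p = 0.639) without wild-type replicate 4. Snhg3 (ENSMUSG00000085241.7; chromosome 4, minus strand, 132348014 to 132353686) was the least variable of the 4 hosts in ΔAgo2 cells, at 40.2, 35.5, 43.3 and 45.7 TPM, against 45.7, 62.9, 30.2 and 16.2 TPM in wild-type. Its log2 fold change was -0.03 (standard error 0.33, 95% interval -0.76 to 0.71, adjusted p = 0.988), the narrowest interval of the 9, and -0.19 (adjusted p = 0.801) without that library.

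Gas5 and Snhg12 varied together over the libraries. Pearson's r of their log2 CPM was 0.83 over 8 libraries and 0.94 over the 7 without wild-type replicate 4. Gas5 and Snhg1 had r of 0.85 and 0.81, Snhg1 and Snhg12 0.60 and 0.82, in the same order, while Snhg3 had r of at most 0.32 with these hosts over the 7 libraries. Such values over 8 libraries were not particular to snoRNA hosts. In the same order, Neat1 and Mir22hg had 0.95 and 0.81, Malat1 and Dleu2 0.88 and 0.42, and Malat1 and Neat1 0.87 and 0.50. These are descriptions over few points that share a library, its depth and its composition, and 2 genotypes, and they were picked from 36 pairs after their values were seen. ΔAgo2 replicates 1 and 2 had the lower Gas5, Snhg1 and Snhg12 of their group, and replicates 3 and 4 the higher.

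**Figure D2:**
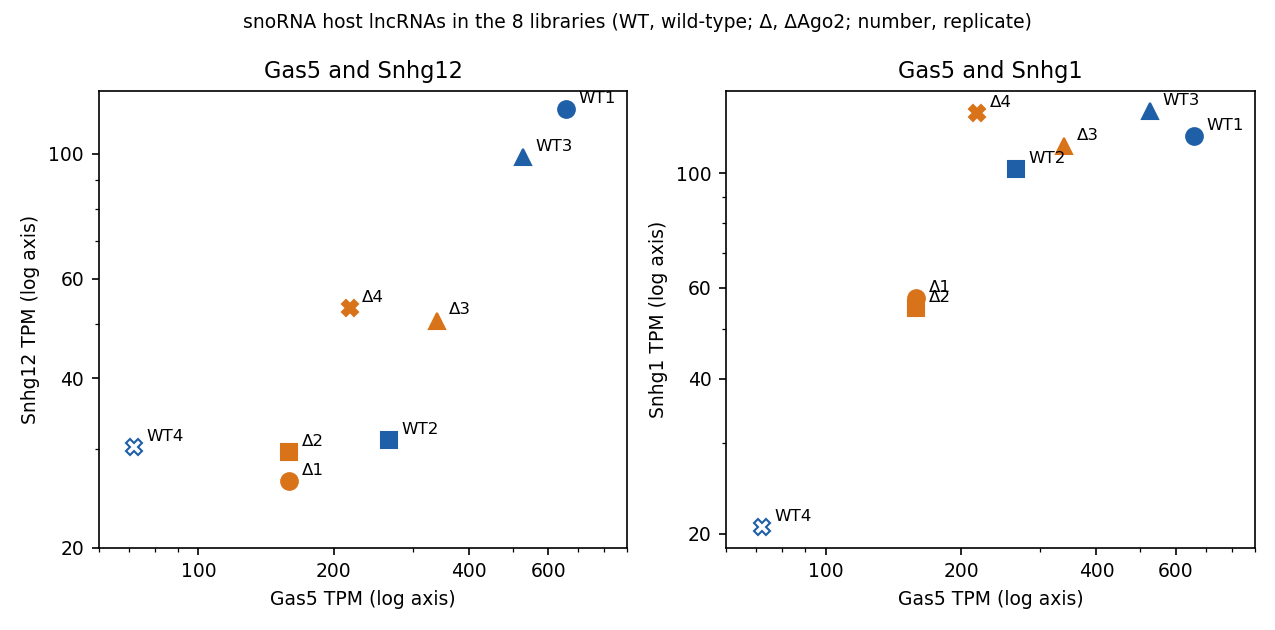
TPM of Gas5 (horizontal, log axis) against TPM of Snhg12 (left) and Snhg1 (right, both log axes) in the 8 libraries, with wild-type in blue and ΔAgo2 in orange. Wild-type replicates 1 and 3 lie at the top right, at 527 to 658 TPM of Gas5, and ΔAgo2 replicates 1 and 2 coincide at 159 TPM of Gas5.

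Few counts fell on the snoRNAs and miRNAs themselves. Of the 34 small-RNA genes annotated inside the 9 lncRNAs on the same strand, 30 lie wholly within annotated exons of the host. These are the 10 in Gas5, the 8 in Snhg1, the 5 in Snhg12, the 6 in Mir17hg and the 1 in Mir22hg, and all 30 had 0 counts in all 8 libraries. By default featureCounts assigns no read that overlaps more than 1 gene, and the setting used is not given in the sources used here, so these counts of 0 set no limit on the small RNAs. The libraries were also made from polyadenylated RNA, and mature snoRNAs and miRNAs have no poly(A) tail. The part of either in the counts was not tested. Of the other 4, Mir16-1 in Dleu2 and Snora73a in Snhg3 lie partly in host exons, with 0 and at most 13 counts in a library, and Mir15a in Dleu2, outside them, had at most 2. The H/ACA snoRNA Snora73b, an intron product of Snhg3 that lies outside the host exons, had 66 to 199 counts and was the only 1 of the 34 to pass the expression filter. It was at 2.07, 2.82, 2.11 and 4.07 CPM in wild-type and at 1.58, 1.90, 1.62 and 1.87 CPM in ΔAgo2 replicates 1 to 4. The groups did not overlap in CPM, which was true of 6.07% of all genes tested, but they overlapped in TPM, and the log2 fold change of -0.66 (standard error 0.37, adjusted p = 0.731, edgeR) did not pass the test. It was -0.42 (adjusted p = 0.597) without wild-type replicate 4, the library with the highest CPM, and -0.37 (adjusted p = 0.733) after the GC correction. This feature was singled out after its values were seen. Snora73b also lies within Rcc1 on the same strand, and how much of its counts came from unspliced Snhg3 or Rcc1 RNA was not tested.

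The miRNA hosts were the least abundant of the set. Mir17hg (ENSMUSG00000089726.2; chromosome 14, plus strand, 115042879 to 115046727) carries the miR-17-92 cluster, which Myc is known to activate. It was at 4.67, 13.2, 7.52 and 0.780 TPM in wild-type and at 6.03, 4.39, 9.61 and 8.92 TPM in ΔAgo2 replicates 1 to 4. Wild-type replicate 2 was the highest library and wild-type replicate 4 the lowest, with all ΔAgo2 libraries between them. The log2 fold change was 0.13 (standard error 0.58, 95% interval -1.16 to 1.42, adjusted p = 0.964), and -0.21 (adjusted p = 0.861) without wild-type replicate 4.

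Mir22hg (ENSMUSG00000085148.1; chromosome 11, plus strand, 75461539 to 75466676) was at 21.0, 23.0, 17.0 and 3.69 TPM in wild-type and at 21.4, 20, 20.5 and 11.5 TPM in ΔAgo2 replicates 1 to 4. Of the 9 lncRNAs it varied least among wild-type replicates 1 to 3, with a highest library 1.37-fold above the lowest in CPM. Its log2 fold change was 0.09 (standard error 0.43, 95% interval -0.87 to 1.04, adjusted p = 0.969), or -0.19 (adjusted p = 0.808) without wild-type replicate 4. Dleu2 (ENSMUSG00000097589.9; chromosome 14, minus strand, 61602839 to 61682373) lies in the region whose human counterpart is often deleted in chronic lymphocytic leukaemia. It was at 1.36, 3.28, 2.08 and 0.160 TPM in wild-type and at 1.91, 1.78, 1.13 and 1.04 TPM in ΔAgo2 replicates 1 to 4, with a log2 fold change of -0.27 (standard error 0.59, 95% interval -1.58 to 1.03, adjusted p = 0.922), or -0.63 (adjusted p = 0.467) without that library. Dleu2 had only 27 counts in wild-type replicate 4 and 155 to 670 in the others, and it had the fewest counts of the 9 in 6 of 8 libraries, with Mir17hg lowest in ΔAgo2 replicates 1 and 2.

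Over the set, edgeR called 0 of the 9 lncRNAs at an adjusted p under 0.05, against 0.295% of the 14228 genes tested. At an unadjusted p under 0.05 there were 0 of 9 as well, against 7.34% of genes, and 0 of 9 had groups that did not overlap in CPM, against 6.07%. DESeq2 and a limma fit with weights for each library (voomWithQualityWeights) also called 0 of 9 at an adjusted p under 0.05, against 2.23% and 1.81% of genes, with 0 and 3 of 9 at an unadjusted p under 0.05, against 9.72% and 16.6%. The 3 were Gas5, Snhg1 and Snhg12, with the lower level in ΔAgo2. Without wild-type replicate 4, edgeR called 0 of 9, against 0.777% of genes, DESeq2 0 of 9, against 3.79%, and 0 of 9 had groups that did not overlap, against 12.1%. Gas5 and Snhg12 then had an unadjusted p under 0.05, 2 of 9 against 12.6% of genes, and both were lower in ΔAgo2, as were 7.04% of genes. In that fit all 9 log2 fold changes were below 0, with a median of -0.43, where 54.2% of all genes were below 0 with a median of -0.04. With all libraries 6 of 9 were below 0, with a median of -0.16 against -0.11 over all genes. Leaving out wild-type replicate 1, 2 or 3 instead put 4, 5 and 4 of 9 below 0, and with the replicate number as a block 3 of 9 were. With all libraries, voomWithQualityWeights put 9 of 9 below 0, the GC correction 8 of 9 and limma on log2(TPM + 0.1) 2 of 9. Without ΔAgo2 replicate 3, edgeR put 8 of 9 below 0. The sign shared by all 9 thus depended on the fit. Apart from the fits without wild-type replicate 4, the lowest library for 8 of them, it was found only with voomWithQualityWeights, which weights each library. The intervals above still admit changes of more than 1 log2 unit for 8 of the 9 lncRNAs, so the absence of a call does not show that their levels were alike. In bulk RNA, fewer cells with a transcript and less transcript per cell cannot be told apart.

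**Figure D3:**
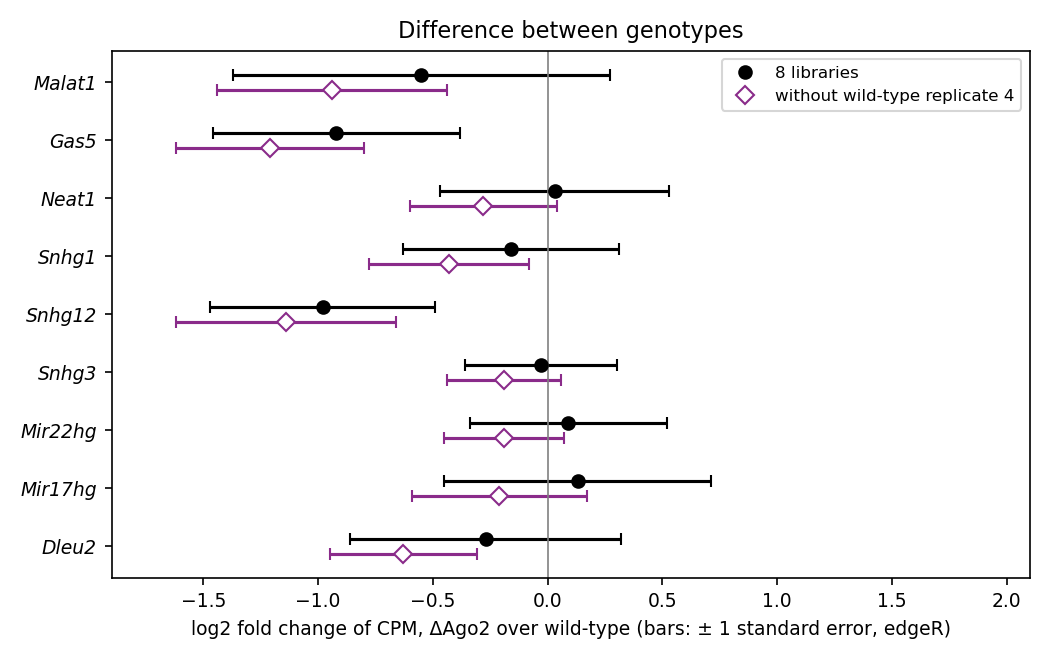
Log2 fold change of ΔAgo2 over wild-type (horizontal axis) for each lncRNA from edgeR with 8 libraries (black circles) and without wild-type replicate 4 (open purple diamonds), with bars of 1 standard error to each side. Without that library every value moves to the left, to between -1.21 for Gas5 and -0.19 for Snhg3 and Mir22hg.

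Wild-type replicate 4 was the lowest of the 8 libraries in CPM for 8 of the 9 lncRNAs, all but Snhg12, and for 37.1% of all genes tested. Relative to the mean log2 CPM of wild-type replicates 1 to 3, Malat1 differed by -4.53 log2 units there, which is 23.1-fold. Dleu2 differed by -2.98, Mir17hg by -2.64, Neat1 by -2.29 and Gas5 by -2.01 log2 units. The median over the 9 was -2.01, against -0.04 over all genes. GC content was taken over the longest annotated transcript of each gene. It was below the median of the genes tested for all 9 lncRNAs, at 34.5 to 47.6% against 49.6%. Over all genes the deviation of this library rose with GC content (Spearman's rho 0.72 across 14228 genes, which are not independent replicates). After each library was corrected for GC content, the median of the 9 was -0.43 against 0.00 over all genes. Gas5 was then at -0.29, Snhg1 at 0.22 and Snhg3 at 0.72 log2 units, while Malat1 stayed at -2.81 and Neat1 at -1.78, the only 2 of the 9 below -1, where 17.9% of all genes were. The SD of log2 CPM among the wild-type libraries had a median of 1.18 over the 9 lncRNAs and 0.78 over all genes, or 0.47 and 0.43 without replicate 4. In ΔAgo2 it was 0.58 over the 9 against 0.23 over all genes.

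**Figure D4:**
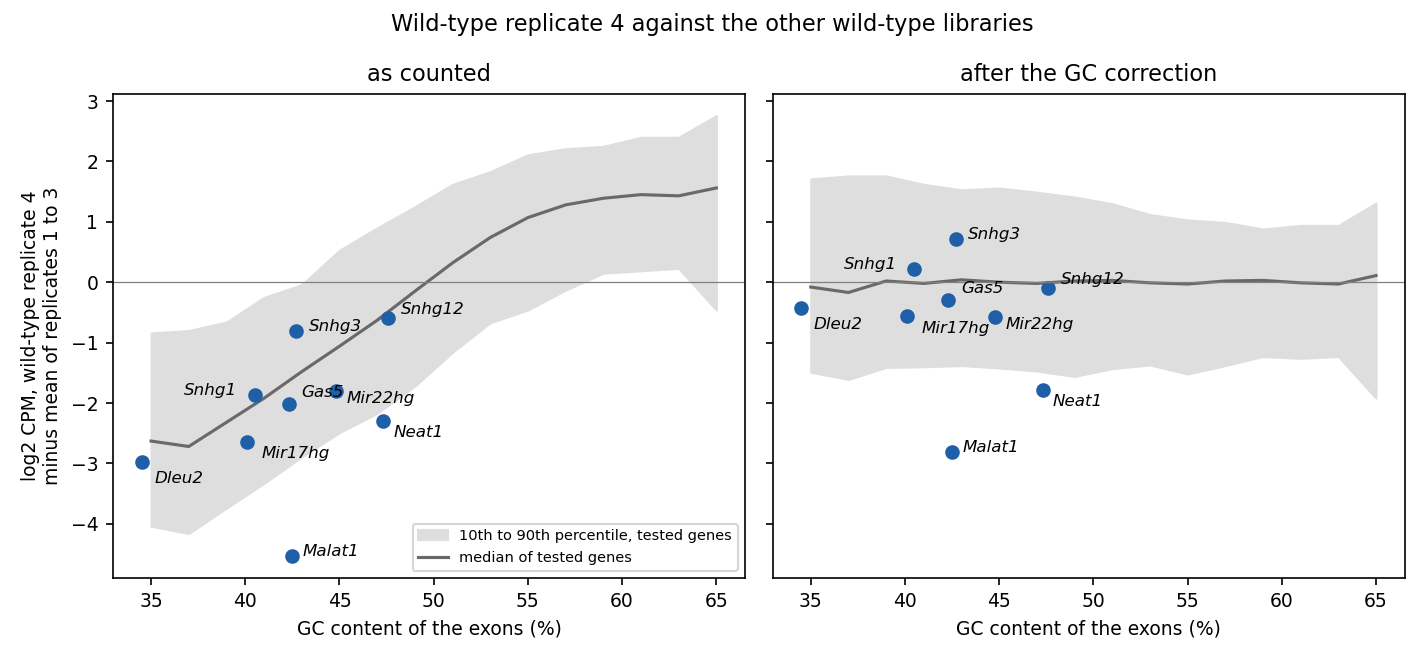
Difference in log2 CPM between wild-type replicate 4 and the mean of wild-type replicates 1 to 3 (vertical axis), as counted (left) and after the GC correction (right). The horizontal axis is the GC content of the longest transcript of each gene. Blue points are the 9 lncRNAs, the grey line is the median and the band the 10th to 90th percentile of tested genes by GC content, and Malat1 and Neat1 stay below the band after the correction, at -2.81 and -1.78.

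Several of the 9 genes overlap others, so their reads could be shared where the counting did not separate strands or isoforms. The strand setting is not given in the sources used here. Snhg3 lies almost wholly inside Rcc1, the nucleotide exchange factor of Ran, on the same strand, and Rcc1 was at 85.5 ± 20.5 TPM in wild-type and 94.3 ± 11.8 TPM in ΔAgo2 (SD, n = 4). Mir22hg overlaps Tlcd2 on the same strand, at 2.12 ± 2.11 and 1.57 ± 0.781 TPM. Gas5 overlaps the opposite-strand gene Zbtb37, at 8.03 ± 5.65 and 10.3 ± 1.75 TPM, and Dleu2 overlaps the opposite-strand ubiquitin ligase Trim13, at 7.57 ± 4.99 and 6.93 ± 0.651 TPM. Snhg1 starts 106 bases from Slc3a2, a subunit of amino acid transporters that is transcribed away from it, at 373 ± 218 and 386 ± 144 TPM. None of these 5 passed the test, with adjusted p of 0.935 for Rcc1, 0.843 for Tlcd2, 0.917 for Zbtb37, 0.934 for Trim13 and 0.948 for Slc3a2 (edgeR), nor did they without wild-type replicate 4, where the smallest was 0.554 for Trim13. Without that library Rcc1 went from -0.13 to 0.24 and Zbtb37 from 0.30 to -0.07 in log2 fold change.

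The related genes were described by lists. Of 17 further lncRNAs listed as snoRNA hosts, 15 were matched and 14 tested. Of these, 0 were called by edgeR and 1 was at an unadjusted p under 0.05, against 7.34% of all genes. This was Snhg8, at 141 ± 49.9 TPM in wild-type and 93.0 ± 18.6 TPM in ΔAgo2 (SD, n = 4), a log2 fold change of -0.80 (adjusted p = 0.607), or -0.82 without wild-type replicate 4. Without that library 2 of the 14 were at an unadjusted p under 0.05, against 12.6% of all genes. They were Snhg8 and Snhg20, the latter at -0.66 (unadjusted p = 0.0301, edgeR). The most abundant were Snhg6, with a log2 fold change of -0.25, or -0.53 without that library, Zfas1, with -0.36, or -0.47, and Snhg8. In this list 11 of 14 log2 fold changes were below 0, with a median of -0.36, where 58.8% of all genes were below 0. The list holds Oip5os1 (Cyrano), which is not known as a snoRNA host, and its value was 0.95, or 0.60. Of 14 further miRNA host lncRNAs, 5 passed the filter and 0 were called or at an unadjusted p under 0.05, among them Pvt1, the neighbour of Myc, at -0.38, or -0.67 without wild-type replicate 4, and Mir100hg at 0.57, or 0.19. Of 13 further nuclear or regulatory lncRNAs, 7 passed and 0 were called or at an unadjusted p under 0.05. Norad, a mostly cytoplasmic lncRNA in that list, was at 0.18, Xist at 0.30 and Tug1 at 0.56. These were -0.12, -0.09 and 0.22 without wild-type replicate 4, and 6 of the 7 were below 0. In that fit 2 of the 7 were under an unadjusted p of 0.05, against 12.6% of all genes, with 0 called. They were Airn, at -0.81 (unadjusted p = 0.0309, edgeR), and Firre, at -0.53 (unadjusted p = 0.0343). For those 7, wild-type replicate 4 was the lowest of the 8 libraries in every case, with a median deviation of -2.51 log2 units, or -1.67 after the GC correction.

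Of 22 protein-coding miRNA hosts, 1 was called by edgeR, lower in ΔAgo2, against 0.295% of all genes. At an unadjusted p under 0.05, 1 was higher and 3 were lower, against 7.34% of all genes. The groups did not overlap in CPM for 4 of the 22, against 6.07%. Without wild-type replicate 4, 2 were called, against 0.777%. Mest, an imprinted gene that holds miR-335 in an intron, was at 6.99 ± 3.27 TPM in wild-type and 1.40 ± 0.382 TPM in ΔAgo2 (SD, n = 4), with every wild-type library at 2.81 TPM or more and every ΔAgo2 library at 1.81 TPM or less. This is a log2 fold change of -2.45 with a standard error of 0.40 (adjusted p = 0.0386, edgeR), and -2.62 (adjusted p = 0.0172) without wild-type replicate 4. Without that library Clcn5, a chloride transporter that holds the miR-188 cluster, was called higher in ΔAgo2 too, with a log2 fold change of 0.99 (adjusted p = 0.0381) against 1.27 (adjusted p = 0.404) with all 8. Mcm7 and Smc4, the hosts in this list that share seeds with Mir17hg and Dleu2, were not called. Their log2 fold changes were 0.15 for Mcm7 (adjusted p = 0.957, edgeR) and 0.26 for Smc4 (adjusted p = 0.926). Leaving out wild-type replicate 4 gave 0.92 for Mcm7 (unadjusted p = 0.0534, adjusted p = 0.405, edgeR) and -0.11 for Smc4 (adjusted p = 0.836).

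The 16 protein-coding snoRNA hosts, 9 of them ribosomal protein genes and Rpl4 the most abundant, had 0 calls and a median log2 fold change of -0.42, or -0.08 without wild-type replicate 4. In the following lists the second value of each pair is without that library. The 15 paraspeckle proteins, partners of Neat1, had 0 calls and a median of 0.07 and -0.03, with Sfpq at 0.19 and 0.21, Nono at 0.07 and 0.21 and Hnrnpk at 0.23 and 0.10. The 9 nuclear speckle proteins had 0 calls and a median of 0.11 and -0.05, with Srsf2 at 0.08 and 0.13 and Srrm2 at -0.28 and -0.52. The 7 box C/D snoRNP proteins, which bind the snoRNAs shown above, had 0 calls and a median of 0.16 and 0.28, with the methyltransferase Fbl at -0.18 and 0.16 and Nop58 at 0.44 and 0.16. The 10 nonsense-mediated decay factors had 0 calls and a median of -0.19 in both, with the helicase Upf1 at -0.44 and -0.13. Of 5 transcription factors known to act on Mir17hg, 4 passed and 0 were called, with a median of 0.29 and 0.55, Myc at -0.19 and -0.38, and E2f1 at 0.11 and 0.75. At an unadjusted p under 0.05 there were 0 of the 60 genes in these 6 lists with edgeR on all libraries, against 7.34% of all genes, and the median log2 fold change over all genes was -0.11. There were 3 of 60 without wild-type replicate 4, against 12.6%, namely E2f1 (unadjusted p = 0.0112, edgeR), Ruvbl2 at 0.39 (unadjusted p = 0.029) and Upf3b at -0.59 (unadjusted p = 0.0131). Without wild-type replicate 4, edgeR called 0 genes of any list but the protein-coding miRNA hosts, and the medians of the 3 lncRNA lists were -0.47 for snoRNA hosts, -0.57 for miRNA hosts and -0.19 for nuclear lncRNAs, against -0.04 over all genes.

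**Figure D5:**
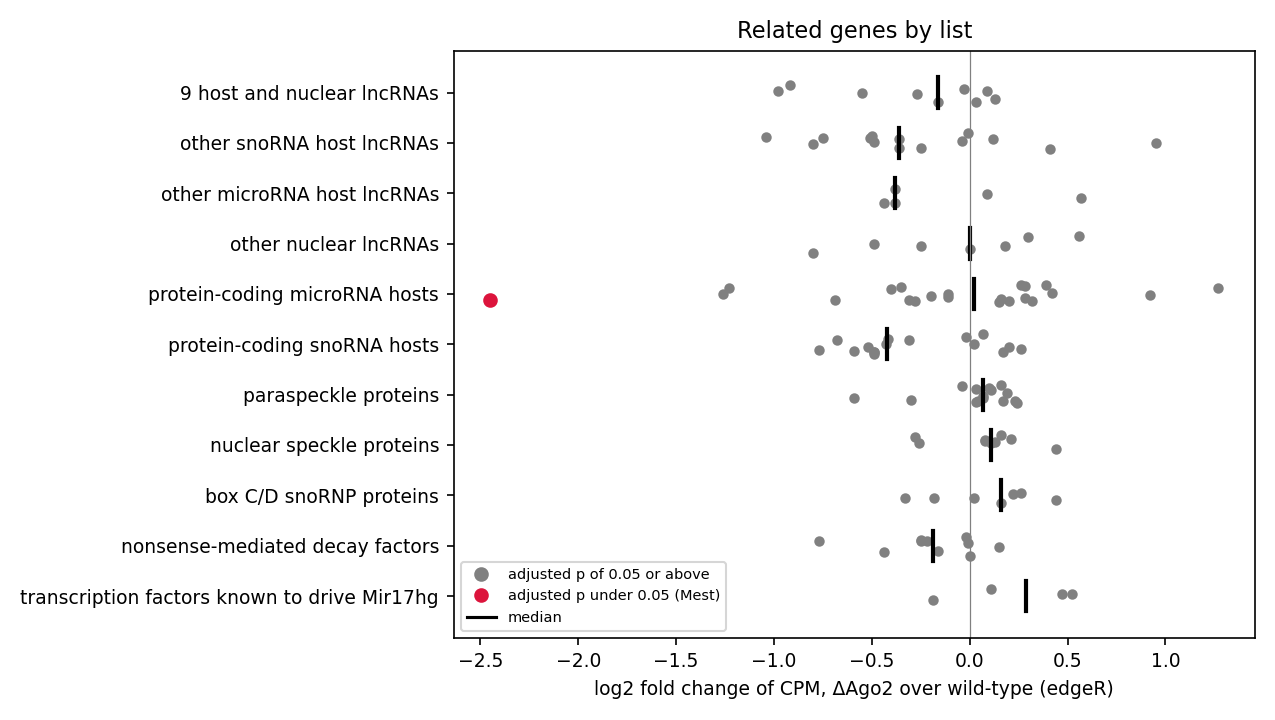
Log2 fold change of ΔAgo2 over wild-type (horizontal axis, edgeR, 8 libraries) for each tested gene of the 9 lncRNAs and the related lists, with a black line at each median. Mest (red, -2.45) is the only gene called, and the medians lie between -0.42 for the protein-coding snoRNA hosts and 0.29 for the transcription factors.

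Hosts were also counted by annotation, without a list. Of 28 tested lncRNAs that hold snoRNAs only, 0 were called and 3 passed an unadjusted p under 0.05, which is 10.7%, and of 26 that hold miRNAs only, 0 were called and 2 passed, which is 7.69%, against 7.34% of all genes. Of 586 tested protein-coding genes with miRNAs only, 4 were called, Gabra3 higher and Adam19, Mest and Sned1 lower in ΔAgo2, which is 0.683% against 0.295% of all genes, and 7% passed an unadjusted p under 0.05. Of 194 with snoRNAs only, 0 were called and 3.09% passed. Of 36 with both, 1 was called, Slit3, which was lower, or 2.78%, and 5.56% passed. All 5 called genes were also called without wild-type replicate 4.

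The genes whose log2 CPM followed each lncRNA most closely over the 8 libraries were named by the highest Pearson's r. They were Krit1 for Malat1 (0.995), AC132307.1 for Neat1 (0.971), Tbx3 for Gas5 (0.986), Zfand5 for Snhg1 (0.974), Gm21926 for Snhg3 (0.970), Bmp6 for Snhg12 (0.995), Rnf103 for Mir17hg (0.984), Oxct1 for Mir22hg (0.984) and Sdha for Dleu2 (0.991). Each r is the highest of 14227 over 8 points that include wild-type replicate 4. No gene was the closest to more than 1 of the 9.

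The 40 bases around the annotated starts of the 4 snoRNA hosts are shown because many snoRNA hosts begin with a pyrimidine tract, the mark of mRNAs of the translation machinery, in which it ties translation to growth signals. A tract (a C followed by at least 4 pyrimidines within 5 bases before to 10 bases after the start) is in capitals, and none was found for Snhg1. The windows are RefSeq promoters on GRCm38.p6, on the plus strand except for Snhg3, which is on the minus strand.
Gas5, chr1:161035146-161035185: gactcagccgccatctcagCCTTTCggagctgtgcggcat
Snhg12, chr4:132308658-132308697: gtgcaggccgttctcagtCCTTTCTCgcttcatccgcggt
Snhg1, chr19:8723467-8723506: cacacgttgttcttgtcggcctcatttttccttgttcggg
Snhg3, chr4:132353667-132353706: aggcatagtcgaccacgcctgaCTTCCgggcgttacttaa
Gas5, with a tract, and Snhg1, without, had r of 0.85 over 8 libraries and 0.81 over the 7 without wild-type replicate 4. In the same order, Gas5 and Snhg12, both with a tract, had 0.83 and 0.94. Snhg3, also with a tract, had 0.44 and 0.18 with Gas5 and 0.04 and 0.03 with Snhg12. A link between the tract and how these 4 hosts varied was not tested. Gas5 has a second annotated start in which no tract was found. Of the 9 windows for 8 of the lncRNAs, 4 held a tract, against 18.3% of 32851 promoters, and the other was Mir22hg. The window listed for Mir17hg starts inside its miRNA cluster. The E-box CACGTG, a palindrome searched over 300 bases, was in 1 of the 9 windows, that of Dleu2, and in 7.15% of all promoters.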

How the data were processed

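RNA of 4 wild-type and 4 ΔAgo2 LLC cultures was sequenced paired-end from stranded libraries of polyadenylated RNA, and each library was grouped by its title in the labels. The authors first aligned reads against ribosomal RNA, then against mm10, ran featureCounts, and deposited raw read counts and TPM for 55487 genes. The submitters' processing notes name STAR. The annotation release and the strand setting are not given in the sources used here.

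Identifiers were matched without their version to GENCODE vM21 (93 had no match). Genes passing filterByExpr were scaled by TMM. The test was the two-sided quasi-likelihood F test in edgeR 4.0.16 under R 4.3.3, on genotype alone, with Benjamini-Hochberg adjustment over all genes tested and calls at an adjusted p under 0.05. The study's methods used DESeq2, which is an alternative here (1.42.0), beside limma 3.58.1, other scalings and filters, a correction for GC content over 20 bins, the replicate number as a block, each library left out in turn, and limma on log2(TPM + 1) and log2(TPM + 0.1). Standard errors are the log2 fold change over the square root of F. Log2 CPM used a prior count of 2. The steps were tested on simulated counts with known changes.

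The 9 lncRNAs and the gene lists were chosen with earlier results of these data known. Every one of the 9 is named. Of the lists, the most abundant genes and any with an adjusted p under 0.05 are named, and other genes named were chosen after their values were seen. Depth of 39628101 to 68530912 counts limits the precision of the lowest genes. Tumor libraries were not analysed here.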

Additional observations from a re-analysis of the deposited data

Results flagged for a closer look

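Each of the 9 lncRNAs was examined for a library that stands off from the remaining 3 of the group on the log2 CPM scale, by the gap to the nearest library over the range of the group (Dixon's ratio, at its 95% critical value for 4 samples). Of 18 groups, 1 exceeded it, where chance gives about 1 in 20. This was Mir22hg in ΔAgo2, in which replicate 4, at 11.5 TPM, lay below replicates 1 to 3, at 20 to 21.4 TPM, with a ratio of 0.849. ΔAgo2 replicate 4 also had the lowest Neat1 and Malat1 of its group, at 40.2 and 239 TPM. None of the wild-type groups exceeded the critical value, although replicate 4 was their lowest library in CPM for 8 of the 9 lncRNAs.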

How the results depend on the processing

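Of the 9 lncRNAs, 0 were called under any of the 21 alternatives, and the smallest adjusted p was 0.0803, for Gas5 with voomWithQualityWeights. Over all genes edgeR called 42, DESeq2 399, and DESeq2 without wild-type replicate 4, an alternative added after the data were seen, 679. Weighting each library gave 257 calls, keeping every gene with at least 1 count 143, the GC correction 68, log2(TPM + 1) 15, and at least 10 counts in every library 2. The 8 fits without 1 library gave 1 to 113 calls, the 113 without wild-type replicate 4 and the 1 without ΔAgo2 replicate 1. Gas5 and Snhg12 kept a lower level in ΔAgo2 in every fit, with log2 fold changes of -1.65 to -0.45 and -1.61 to -0.57. Of the 189 values of the 9 lncRNAs, 38 changed sign, all of them among the other 7, and the cause was not tested. With the replicate number as a block, Malat1 was at 0.30, Snhg3 at 0.04 and Dleu2 at 0.08, with 18 genes called. With the block and the GC correction, Malat1 was at 0.04 and Mir22hg at -0.03. Same-numbered libraries are not said to share a day, and their deviations correlated at -0.138, -0.0491, 0.384 and 0.0278 for replicates 1 to 4. On log2(TPM + 1) Malat1 was at 0.60, Snhg1 at 0.12 and Snhg3 at 0.24, and on log2(TPM + 0.1) Malat1 at 0.61, Snhg1 at 0.12, Snhg3 at 0.25 and Dleu2 at 0.23. The median over all genes was 0.15 and 0.22 on these 2 scales and -0.11 in counts. With voomWithQualityWeights Neat1 was at -0.14, Mir17hg at -0.22 and Mir22hg at -0.17, after the GC correction Neat1 at -0.00 and Mir22hg at -0.02, and with total counts Snhg3 at 0.03. DESeq2 without wild-type replicate 4 gave -0.28 for Neat1, -0.20 for Mir17hg and -0.18 for Mir22hg. Without 1 library in turn, Malat1 ranged from -0.94 to 0.52, Neat1 from -0.28 to 0.28, Snhg1 from -0.43 to 0.04, Snhg3 from -0.19 to 0.15, Mir17hg from -0.21 to 0.58, Mir22hg from -0.19 to 0.30 and Dleu2 from -0.63 to 0.10.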
